A study of Mus musculus with 16 samples.

Results

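The 8 genes described here mark neutrophils and the receptors that neutrophils use, namely Csf3r, Cxcr2, Trem1, Trem3, Clec4d, Clec4e, Retnlg and Ly6g. They were chosen by symbol, and each matched 1 of the 50600 gene identifiers in the count table. All 8 passed the filter of at least 10 counts in total over the 16 libraries, as did 22155 genes overall. The libraries came from footpad epidermal cells of female C57/B6J mice, 4 mice in each of 4 groups, with bulk mRNA sequenced and no sorting of cell types. Both diets were purified AIN-93M diets, given for 3 wk from an age of 5 wk, that differed in the addition of 200 ppm of indole-3-carbinol (I3C), a plant compound from which agonists of the aryl hydrocarbon receptor (AhR) form. The groups are named I3C diet and AhR-poor diet (SYNTH in the labels), each with vehicle (50 μl of PBS alone) or papain (50 μg of this protease allergen in the same volume), and the epidermis was taken 6 h after the injection. Animals fed alike were caged together, so diet and cage cannot be told apart.

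Neutrophils leave the bone marrow and enter inflamed skin along gradients of CXC chemokines, and they carry ready-made granules that are filled while the cell matures. Granulocyte colony-stimulating factor, read by Csf3r, drives their production and release, and Cxcr2 is the chemokine receptor by which they follow Cxcl1, Cxcl2, Cxcl3 and Cxcl5. Trem1 and Trem3 are activating receptors that signal through the adaptor Tyrobp, while the C-type lectin receptors Clec4e (Mincle) and Clec4d signal through Fcer1g, Syk and Card9. Ly6g is the surface antigen by which mouse neutrophils are usually recognised, and Retnlg encodes a secreted resistin-like protein of myeloid cells. Keratinocytes can also transcribe some genes known from neutrophils, Lcn2, S100a8 and S100a9 among them, and Cxcr2 has been described in keratinocytes too.

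The genes lie at 6 loci of GRCm38, and none shares exonic bases with another annotated gene. Trem1 (chromosome 17, 48232768 to 48246924) and Trem3 (48247777 to 48258841) are neighbours on the plus strand, 852 bp apart. Clec4d (chromosome 6, 123262111 to 123275265, plus strand) and Clec4e (123281789 to 123289870, minus strand) lie 6523 bp apart. Csf3r is on chromosome 4 (126024550 to 126044440), Cxcr2 on chromosome 1 (74153989 to 74161246), Retnlg on chromosome 16 (48872621 to 48874496) and Ly6g on chromosome 15 (75155240 to 75159126), all on the plus strand. Ly6g belongs to a family of similar genes, and how reads shared between paralogs were counted is not given in the sources used here.

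Promoter windows of RefSeq (GRCm38.p6, from 250 bases before to 50 after the start) were found for 7 of the 8 genes. The letters GAGGAA, the core recognised by the myeloid factor PU.1, stood on either strand in the windows of Csf3r, Cxcr2, Trem1, Clec4d, Clec4e and Ly6g and not in that of Retnlg, against 28.3% of all 32851 windows. This and 3 further patterns were chosen after these windows had been read, and a match is a description of letters only. On either strand, TTGCNNAA (C/EBP) matched in Clec4e, Retnlg and 1 of the 2 windows of Ly6g (10.8% of all windows), GCGTG (the AhR response element core) in Clec4e alone (32.4%), and TTCNNNGAA (STAT) in Trem1 alone (8.3%). Overlaps between patterns were allowed. The 4 windows below are shown because their genes gave the contrasting patterns of expression described next, Cxcr2 on the one hand and Csf3r, Clec4e and Retnlg on the other. Capitals mark GAGGAA or its reverse complement, and the windows are chr1:74153744-74154043 (Cxcr2), chr4:126024409-126024708 (Csf3r), chr6:123289822-123290121 (Clec4e, minus strand) and chr16:48872358-48872657 (Retnlg).
Cxcr2: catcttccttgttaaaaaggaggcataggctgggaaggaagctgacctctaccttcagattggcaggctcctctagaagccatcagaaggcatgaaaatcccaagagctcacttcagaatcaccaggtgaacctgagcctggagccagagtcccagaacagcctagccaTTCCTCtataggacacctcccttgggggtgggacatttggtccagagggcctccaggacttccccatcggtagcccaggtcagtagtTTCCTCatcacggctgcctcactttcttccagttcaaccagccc
Csf3r: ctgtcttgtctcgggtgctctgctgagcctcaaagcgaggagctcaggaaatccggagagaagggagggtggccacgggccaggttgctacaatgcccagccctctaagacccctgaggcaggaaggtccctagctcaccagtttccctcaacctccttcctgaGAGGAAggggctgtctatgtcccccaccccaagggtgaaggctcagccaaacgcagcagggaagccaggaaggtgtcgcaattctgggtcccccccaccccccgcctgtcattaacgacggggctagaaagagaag
Clec4e: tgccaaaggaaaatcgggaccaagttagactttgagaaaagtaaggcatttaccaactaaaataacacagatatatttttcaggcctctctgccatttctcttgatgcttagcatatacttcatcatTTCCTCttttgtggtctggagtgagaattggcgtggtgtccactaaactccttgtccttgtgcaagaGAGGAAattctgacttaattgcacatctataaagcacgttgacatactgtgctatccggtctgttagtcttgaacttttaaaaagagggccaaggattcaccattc
Retnlg: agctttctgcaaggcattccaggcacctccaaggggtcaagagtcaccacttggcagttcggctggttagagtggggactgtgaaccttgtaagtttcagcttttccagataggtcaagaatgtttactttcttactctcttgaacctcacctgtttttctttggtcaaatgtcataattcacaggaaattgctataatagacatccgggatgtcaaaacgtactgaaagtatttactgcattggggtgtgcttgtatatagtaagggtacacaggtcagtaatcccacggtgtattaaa

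The libraries held from 22500821 to 51844375 counts. In CPM (counts scaled to the library size, itself adjusted by TMM factors of 0.937 to 1.07), 3 counts in 1 library equalled 0.0569 to 0.130 CPM, and this floor covers counting error only. No pair of libraries in a group agreed within sampling noise (lowest chi-square divided by its degrees of freedom 9.43). Each library is labelled as a separate sample, and the spread is that between these samples. A gene was called where its edgeR adjusted p was below 0.01 and its log2 fold change past 1. The 9 keratinocyte markers summed to 38230 CPM or more in every library, and 0 of them were called between the diets with either treatment, also by DESeq2. At an unadjusted edgeR p below 0.05 there were 1 with vehicle and 4 with papain, of which Krt15 and Trp63 had adjusted p-values of 0.00279 and 0.00857 with log2 fold changes of 0.80 and -0.39 (chosen after their values were seen).

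Cxcr2 was induced by papain on both diets. Its level with vehicle was 0.517, 0.535, 0.898 and 0.871 CPM in the 4 libraries of the I3C diet, and with papain it was 22.9, 19.3, 29.5 and 25.2 CPM. On the AhR-poor diet the vehicle libraries held 0.599, 0.900, 1.26 and 1.85 CPM and the papain libraries 30.9, 42.3, 40.3 and 23.6 CPM. Every papain library lay far above every vehicle library, and the papain libraries of the 2 diets overlapped. The mean rose 34.4-fold on the I3C diet, from 0.705 ± 0.207 to 24.2 ± 4.25 CPM (SD, n = 4), with a log2 fold change of 5.10 (SE 0.30, edgeR adjusted p = 7.17e-09). On the AhR-poor diet it rose 29.8-fold, from 1.15 ± 0.538 to 34.3 ± 8.70 CPM (SD, n = 4), with a log2 fold change of 4.89 (SE 0.29, edgeR adjusted p = 1.28e-08). The difference between these responses was -0.21 on the log2 scale (SE 0.41, edgeR adjusted p = 0.863). Between the diets, Cxcr2 was 1.42-fold higher on the AhR-poor diet with papain and 1.64-fold higher with vehicle, and neither difference passed (edgeR adjusted p = 0.143 and 0.416, exact permutation p = 0.114 and 0.143).

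Csf3r, which shares the neutrophil surface with Cxcr2, was distributed otherwise. On the I3C diet it stood at 0, 0.0510, 0.0272 and 0.0300 CPM with vehicle, which is 4 counts in all, and at 2.29, 0.513, 0.0285 and 0.124 CPM with papain. On the AhR-poor diet it stood at 0.763, 0.715, 0.742 and 0.215 CPM with vehicle. With papain it stood there at 55.6, 56.8 and 11.9 CPM in libraries T104, T107 and T112, and higher still in T105, which held 5643 counts of it against 2257, 1313 and 438 in the others. The 4 AhR-poor papain libraries lay above all others, library T105 being the highest and T112 the lowest, while the papain libraries of the I3C diet reached down into the range of their vehicle libraries and up to 2.29 CPM in library T106. The mean with papain on the AhR-poor diet was 78.3 times that on the I3C diet (57.8 ± 38.9 against 0.739 ± 1.06 CPM, SD, n = 4), a log2 fold change of 6.23 (SE 0.83, edgeR adjusted p = 1.54e-04). Papain raised Csf3r 95.1-fold on the AhR-poor diet, with a log2 fold change of 6.56 (SE 0.85, edgeR adjusted p = 5.60e-05). The I3C response had a ratio of means of 27.3 that did not pass (edgeR adjusted p = 0.0660, exact permutation p = 0.0857), and its log2 fold change went from 4.63 to 2.76 without library T106.

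Trem1, which amplifies inflammatory signals in neutrophils and monocytes, followed Csf3r. Its 4 libraries with papain on the AhR-poor diet held 50.6, 99.2, 49.8 and 12.2 CPM, against 1.75, 0.385, 0.0856 and 0.0746 CPM on the I3C diet. With vehicle it held 0.327, 0.265, 0.321 and 0.215 CPM on the AhR-poor diet, and on the I3C diet 3 counts were found in the whole group. The papain libraries of the AhR-poor diet lay above all others. On the I3C diet each papain library lay above the vehicle libraries, of which T111 was highest at 0.0600 CPM, with T114 and T115 only narrowly so. The mean with papain was 92.1-fold higher on the AhR-poor diet (log2 fold change 6.46, SE 0.77, edgeR adjusted p = 6.18e-05), and papain raised it 188-fold there (log2 fold change 7.54, SE 0.84, edgeR adjusted p = 1.60e-05). On the I3C diet, 90 counts with papain against 3 with vehicle gave a ratio of 29.3 (95% exact counting interval 9.72 to 145), which did not pass in edgeR (adjusted p = 0.0607) although the libraries did not overlap (exact permutation p = 0.0286, the least that 4 against 4 libraries can give). Library T106 held 72 of the 90 counts, and without it the log2 fold change of Trem1 went from 4.64 to 2.84.

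Trem3, its neighbour and a receptor for the same adaptor, was found at far lower counts. With papain on the AhR-poor diet it had 86, 217, 45 and 19 counts, or 2.12, 4.12, 1.95 and 0.517 CPM. The I3C papain libraries held 4, 1, 1 and 0 counts, the AhR-poor vehicle group 2 counts and the I3C vehicle group 0. Outside the AhR-poor papain group, library T106 alone exceeded 3 counts. With papain the AhR-poor mean was 55.0 times the I3C mean (log2 fold change 5.65, SE 0.73, edgeR adjusted p = 7.56e-05). Its ratio of papain to vehicle on the AhR-poor diet was 182, with an interval of 50.1 to 1511 that reflects the 2 counts below it (log2 fold change 7.06, edgeR adjusted p = 1.74e-05).

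**Figure D1:**
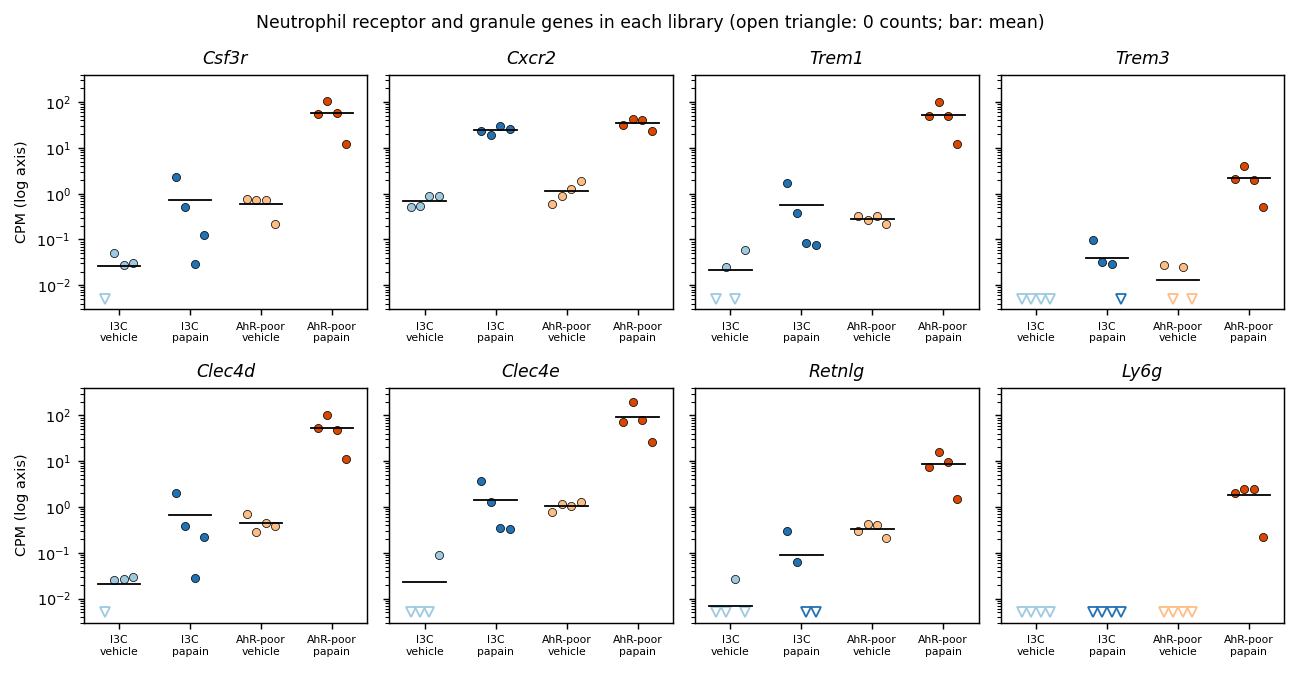
CPM on a log axis of each of the 8 genes in each library, by diet and treatment, with filled points for libraries, open triangles for libraries with 0 counts and bars for group means. Cxcr2 rose to a similar level on both diets, from 19.3 to 29.5 CPM on the I3C diet and from 23.6 to 42.3 CPM on the AhR-poor diet, whereas the other 7 genes were high in the AhR-poor papain libraries.

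The lectin receptor pair behaved alike. Clec4e, which recognises glycolipids of mycobacteria and a nuclear protein of dying cells, had the highest CPM of the 8 genes, with 72.2, 201, 78.8 and 26.6 CPM in the AhR-poor papain libraries. In the I3C papain libraries it held 3.68, 1.31, 0.343 and 0.323 CPM, in the AhR-poor vehicle libraries 0.790, 1.17, 1.04 and 1.29 CPM, and in the I3C vehicle libraries 3 counts, all in library T111. Each AhR-poor papain library lay above every other library, and the I3C papain libraries spanned those of the AhR-poor diet with vehicle. The diet ratio of means with papain was 66.9 (log2 fold change 6.03, SE 0.74, edgeR adjusted p = 8.16e-05) and the papain ratio on the AhR-poor diet 88.4 (log2 fold change 6.46, SE 0.77, edgeR adjusted p = 2.68e-05). On the I3C diet the ratio of 217 to 3 counts was 70.7 (interval 23.9 to 345), with 4 of 4 papain libraries above all vehicle libraries. Library T106 held 151 of the 217 counts, and the log2 fold change of 5.90 became 4.71 without it and 8.77 without the vehicle library T111. That response missed the threshold in the model of all libraries (edgeR adjusted p = 0.0168) and passed it without library T105 or T112 of another group (adjusted p = 0.00488 and 0.00686), while without library T106 its adjusted p was 0.0623.

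Clec4d, the partner that raises the surface level of Clec4e, held 54.0, 103.1, 48.8 and 11.3 CPM in the AhR-poor papain libraries and 1.97, 0.385, 0.0285 and 0.224 CPM in those of the I3C diet. With vehicle it held 0.708, 0.291, 0.445 and 0.375 CPM on the AhR-poor diet and 3 counts in all on the I3C diet. The means with papain differed 83.2-fold between the diets (log2 fold change 6.31, SE 0.79, edgeR adjusted p = 9.39e-05), and papain raised it 119-fold on the AhR-poor diet (log2 fold change 6.89, SE 0.83, edgeR adjusted p = 2.98e-05). On the I3C diet 3 of 4 papain libraries exceeded all vehicle libraries (edgeR adjusted p = 0.0563), and the log2 fold change of Clec4d went from 4.82 to 3.12 without library T106. Per kilobase of merged exons, the AhR-poor papain means were 33.9 CPM for Clec4d, 19.1 for Clec4e, 17.7 for Trem1, 16.03 for Csf3r, 14.6 for Retnlg, 11.3 for Cxcr2, 2.19 for Trem3 and 1.92 for Ly6g. On this scale Clec4d, and not Clec4e, had the highest level, and Cxcr2 was in sixth place. With papain on the I3C diet Cxcr2 was first, at 7.95 CPM per kilobase, and the next, Clec4d, was at 0.408.

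Retnlg held 7.49, 15.9, 9.74 and 1.47 CPM in the AhR-poor papain libraries and 0.2997, 0.424, 0.396 and 0.215 CPM in the AhR-poor vehicle libraries. On the I3C diet it had 12, 2, 0 and 0 counts with papain and 1 count with vehicle. It was the 1 gene of the 8 whose second highest group was AhR-poor with vehicle rather than I3C with papain, although the libraries of these 2 groups overlapped. Its mean with papain was 97.0-fold higher on the AhR-poor diet (log2 fold change 6.48, SE 0.81, edgeR adjusted p = 5.25e-05), and its papain ratio there, 25.9, was the smallest of the 8 (log2 fold change 4.68, SE 0.69, edgeR adjusted p = 9.27e-05).

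Ly6g had no count in 12 of the 16 libraries. Its 84, 128, 58 and 8 counts were all in the AhR-poor papain group, at 2.07, 2.43, 2.51 and 0.218 CPM. Set against the floor of 3 counts over a group, it was at least 89.2-fold higher there than with papain on the I3C diet and at least 92.1-fold higher than with vehicle on the AhR-poor diet. In edgeR the papain response on the AhR-poor diet passed (adjusted p = 0.00621) and the diet difference with papain did not (adjusted p = 0.0111). Both rested on few libraries. The response no longer passed in the fits that left out T100, T101, T102, T103, T104, T105 or T107 one at a time, with an adjusted p of up to 0.0272, nor in DESeq2 (adjusted p = 0.0107), and the diet difference passed without T112 (adjusted p = 7.27e-06).

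Counted over the 8 genes, papain on the AhR-poor diet raised all 8 at these thresholds, against a background of 6.04% of all genes tested that were called higher (DESeq2 called 7, against 6.29%). All 8 had an unadjusted edgeR p below 0.05, as did 21.6% of all genes in this direction. The ratios ran from 25.9 for Retnlg to 188 for Trem1, and the median of the log2 ratios was 6.55 with Ly6g at its bound, where over all genes tested the median of the log2 fold changes was -0.00438. Papain on the I3C diet raised 1 of the 8, Cxcr2, against a background of 3.69%, and 5 had an unadjusted edgeR p below 0.05, against 20.4% (DESeq2 called 5, against 4.1%, namely Cxcr2, Csf3r, Trem1, Clec4d and Clec4e). The libraries did not overlap for 3 of the 8 on the I3C diet (Cxcr2, Trem1 and Clec4e), where 16.2% of all genes had papain libraries wholly above vehicle. On the AhR-poor diet they did not overlap for all 8, against 17% of all genes. None of the 8 was called lower in any comparison, where the background of genes called lower was 2.42% for papain on the AhR-poor diet and 5.29% on the I3C diet, and 0.0993% for the diet difference with papain.

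Between the diets with papain, 6 of the 8 were called higher for the AhR-poor diet, against a background of 7.15%, with Cxcr2 and Ly6g the exceptions (DESeq2 also called 6, against 7.76%). All 8 had an unadjusted edgeR p below 0.05, against 17.5%. The libraries did not overlap for 7 of the 8, all but Cxcr2, against 12.5% of all genes. The median log2 ratio was 6.33, while that of all genes tested was 0.01. Library T106 held the most of Csf3r, Trem1, Trem3, Clec4d, Clec4e and Retnlg among the I3C papain libraries, and without it the log2 fold changes of the 6 genes called were 6.63 to 8.61 in place of 5.65 to 6.48. Without library T105, the highest of the other group, they were 5.10 to 5.98. All 6 calls held in each of the 16 fits that left out 1 library.

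Between the diets with vehicle, 0 of the 8 were called, against a background of 1.59% higher, with 3 at an unadjusted edgeR p below 0.05 (8.94% of all genes), and DESeq2 called 4, against 2.69% (Csf3r, Clec4d, Clec4e and Retnlg). The AhR-poor libraries lay wholly above the I3C libraries for 5 (Csf3r, Trem1, Clec4d, Clec4e and Retnlg), against 6.45% of all genes. These are low counts. Clec4e had 163 counts in the AhR-poor vehicle group against 3 in the I3C group, a ratio of 51.5 (interval 17.3 to 252), and Retnlg had 51 against 1, a ratio of 48.3 (interval 8.29 to 1944). For Trem1 the ratio was 13.6 (interval 4.34 to 68.4) and for Clec4d 21.8 (interval 7.15 to 108.2). In a fit of only the 8 vehicle libraries 5 genes passed, and the call of these genes thus depended on which libraries set the spread. The test of the difference between the papain and the vehicle contrast called 0 of the 8, against a background of 0.0181% higher, with 0 at an unadjusted edgeR p below 0.05 (7.41%) and 0 in DESeq2 (0.903%). The I3C vehicle group held 4 counts of Csf3r and 3 of Clec4e, so this test rests on few counts for these genes. The lack of a call is therefore not read as an equal response. Their standard errors, 3.88 and 5.89 on the log2 scale, were derived from the F statistic. Near the floor such values are unreliable and do not measure what could be detected. For Cxcr2 the standard error was 0.41.

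The order of the 4 groups was the same for Csf3r, Cxcr2, Trem1, Trem3, Clec4d and Clec4e, with AhR-poor papain highest, then I3C papain, AhR-poor vehicle and I3C vehicle. The middle pair did not overlap for Cxcr2, and overlapped for the other 5 genes, whose order there was not resolved. Over the 16 libraries, Pearson's correlation of log2 CPM lay between 0.816 and 0.993 for the 21 pairs of the 7 genes other than Cxcr2, and between 0.488 and 0.740 for Cxcr2 with each of them. These values are descriptive, since the points share group, library and the floor.

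Of the 21 ligand, adaptor and signalling genes tested, 11 rose with papain on the AhR-poor diet, against 6.04% of all genes tested. On the I3C diet 2 rose, against 3.69%. With papain 10 were called higher for the AhR-poor diet, against 7.15%, and 0 were called lower in these 3 comparisons. The ligands of Cxcr2 were far more unequal between the diets than the receptor. Cxcl5 held 15.9, 30.4, 26.4 and 9.16 CPM in the AhR-poor papain libraries and at most 0.146 CPM elsewhere (diet log2 fold change with papain 8.66, SE 0.60, edgeR adjusted p = 2.15e-07). Cxcl3 stood at 17.7 ± 9.61 against 0.294 ± 0.260 CPM (SD, n = 4; log2 fold change 5.86, edgeR adjusted p = 6.99e-06), Cxcl2 at 163 ± 94.7 against 11.7 ± 2.71 CPM (3.80, adjusted p = 5.01e-05) and Cxcl1 at 132 ± 27.2 against 54.2 ± 4.17 CPM (1.29, adjusted p = 6.30e-04). Cxcl1 was thus present on both diets with either treatment, and on the I3C diet its log2 fold change with papain was 0.01. Ppbp, another ligand of the receptor, had 78 counts in the AhR-poor papain group and 1 in all others together (log2 fold change 7.16, edgeR adjusted p = 0.00202).

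Csf3, the ligand of Csf3r, held 4.83, 8.04, 3.51 and 1.58 CPM in the AhR-poor papain libraries and 0.0962 to 0.122 CPM in those of the I3C diet (log2 fold change 5.34, SE 0.54, edgeR adjusted p = 2.40e-06). With papain on the I3C diet it did not pass (log2 fold change -0.27, edgeR adjusted p = 0.817), so receptor and ligand both lay low there. Downstream of Csf3r, Stat3 had a log2 fold change with papain of 0.89 on the AhR-poor diet and Jak2 one of 0.49 (edgeR adjusted p = 6.74e-07 and 0.00214), both short of the minimum fold change. Their log2 fold changes on the I3C diet were 0.9997 and 0.55 (edgeR adjusted p = 8.32e-08 and 6.97e-04), likewise short of it.

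Cxcr1, the other receptor for such chemokines, shared the pattern of Cxcr2 at a far lower level. It had 50 counts with papain on the I3C diet and 72 on the AhR-poor diet, against 1 and 0 with vehicle (edgeR adjusted p = 2.60e-05 and 5.91e-06), and the diet difference with papain did not pass (log2 fold change 0.40, SE 0.38, edgeR adjusted p = 0.522). The tyrosine kinase gene Syk also rose on both diets, from 15.7 ± 2.03 to 46.9 ± 9.90 CPM on the I3C diet and from 15.8 ± 1.64 to 73.1 ± 26.4 CPM on the AhR-poor diet (SD, n = 4; log2 fold changes 1.58 and 2.21, edgeR adjusted p = 3.35e-05 and 2.62e-06). The adaptors went with the other receptors. Tyrobp held 26.4, 47.0, 26.1 and 8.87 CPM in the AhR-poor papain libraries against 3.58, 1.60, 1.60 and 0.870 CPM on the I3C diet (log2 fold change 3.82, SE 0.50, edgeR adjusted p = 1.04e-04), and Fcer1g had a log2 fold change of 3.42 (SE 0.52, edgeR adjusted p = 3.65e-04). Pglyrp1, whose product is a ligand of Trem1, had one of 6.13 (SE 0.78, edgeR adjusted p = 3.16e-05). Card9 was higher on the AhR-poor diet with papain by 1.06 (SE 0.26, edgeR adjusted p = 0.00809), and its partners Bcl10 and Malt1 did not pass.

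**Figure D2:**
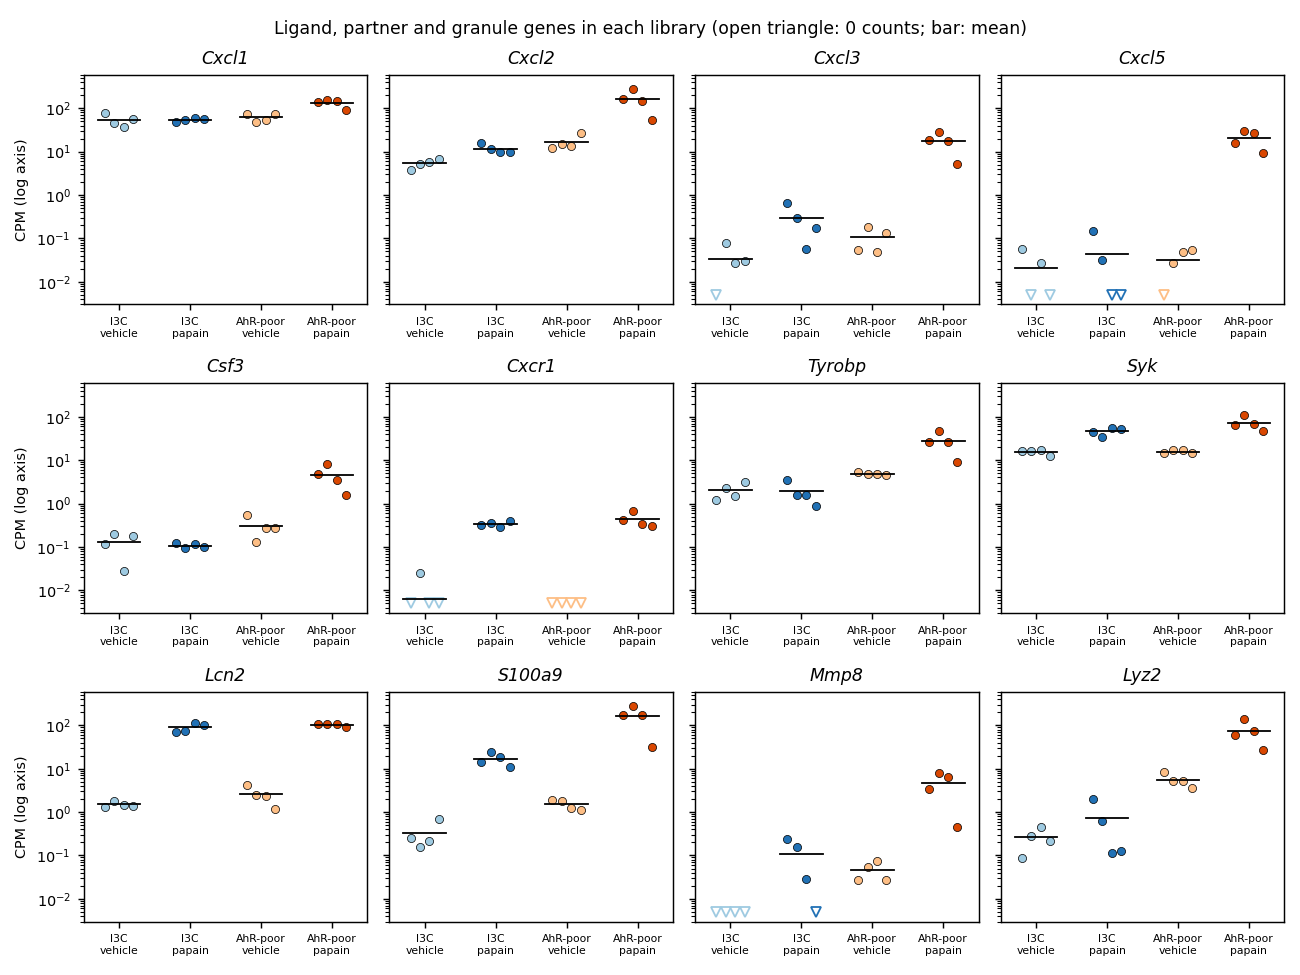
CPM on a log axis of 12 ligand, partner and granule genes in each library, by diet and treatment, with open triangles for 0 counts and bars for group means. Cxcr1 and Lcn2 reached similar levels with papain on both diets, while Cxcl5 exceeded 0.146 CPM in the AhR-poor papain libraries alone. Syk with papain ran from 33.5 to 56.4 CPM on the I3C diet and from 47.6 to 110.1 CPM on the AhR-poor diet.

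Granule genes divided in the same manner. Of the 11 tested, 7 rose with papain on the AhR-poor diet and 4 on the I3C diet, against 6.04% and 3.69% of all genes tested. The AhR-poor diet had the higher level for 6 with papain and for 1 with vehicle (Lyz2), against 7.15% and 1.59%. Lcn2, the siderophore-binding protein of specific granules, rose on the I3C diet from 1.51 ± 0.230 to 89.7 ± 19.8 CPM and on the AhR-poor diet from 2.55 ± 1.28 to 102.2 ± 8.13 CPM (SD, n = 4; log2 fold changes 5.88 and 5.33, edgeR adjusted p = 2.89e-09 and 9.18e-09), and its diet difference with papain did not pass (0.19, SE 0.22, edgeR adjusted p = 0.617). S100a8 and S100a9, the calprotectin subunits, and the gelatinase gene Mmp9 rose on both diets as well. Between the diets with papain, S100a9 passed (160.6 ± 99.0 against 16.9 ± 5.75 CPM, SD, n = 4, log2 fold change 3.25, edgeR adjusted p = 5.27e-04), whereas S100a8 had a log2 fold change of 1.95 (adjusted p = 0.0223) and Mmp9 of 0.98 (adjusted p = 0.112).

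The collagenase gene Mmp8, the chitinase-like gene Chil3, the lysozyme gene Lyz2, and the specific granule genes Ngp and Ltf were higher with papain for the AhR-poor diet by log2 fold changes of 5.37, 7.88, 6.65, 8.11 and 4.57 (edgeR adjusted p = 0.00139, 2.57e-04, 2.95e-05, 0.00210 and 0.00275). Lyz2, also known from macrophages, was the most abundant of them, at 74.8 ± 46.3 against 0.717 ± 0.900 CPM (SD, n = 4). Ltf and Ngp were rare, with 66 and 145 counts in the AhR-poor papain group. Camp, also on the granule list, was not called between the diets with papain. It had 20 counts in the AhR-poor papain group, 9 with vehicle on that diet and 0 in either I3C group. Of the azurophilic granule genes, which are transcribed in the marrow, Mpo, Elane and Ctsg had at most 7 counts in any group and were not tested. Prtn3 was called lower with papain on the I3C diet, from 30 counts to 9 (edgeR adjusted p = 0.00968).

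**Figure D3:**
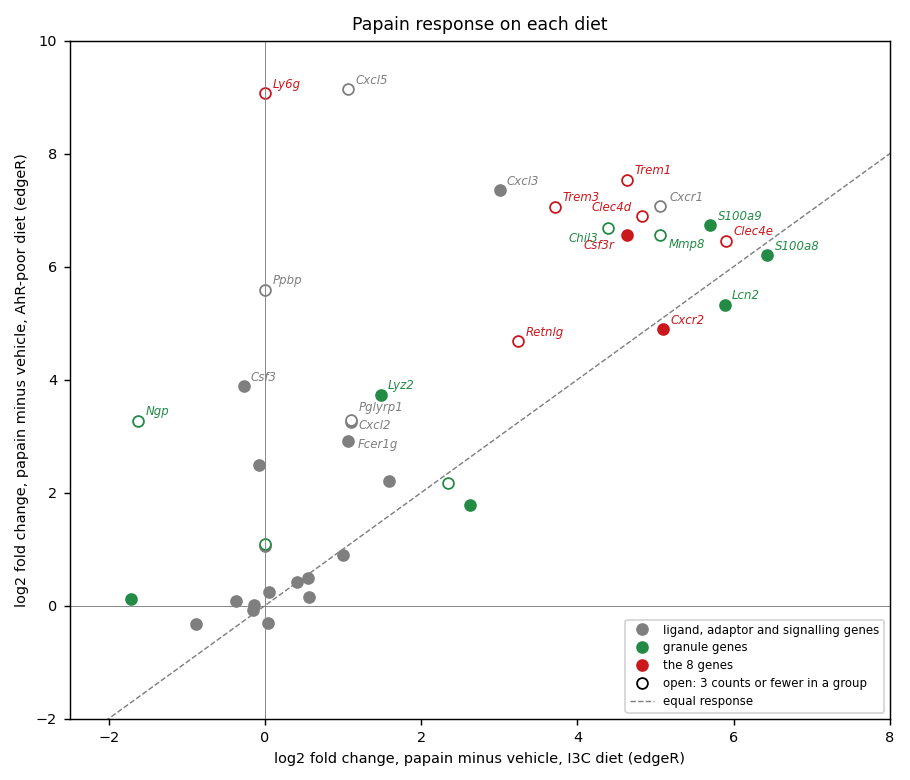
Log2 fold change (edgeR) of papain over vehicle on the I3C diet (x axis) and on the AhR-poor diet (y axis) for the 8 genes, the granule genes and the ligand, adaptor and signalling genes, with open circles where a group had 3 counts or fewer and the estimate depends on the prior count. Cxcr2 and Lcn2 lay near the line of equal response, at 5.10 and 4.89 and at 5.88 and 5.33, while Ly6g, Cxcl5 and Csf3 lay far above it.

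Among 16 further neutrophil genes, 15 were called higher with papain for the AhR-poor diet, against 7.15% of all genes tested. On that diet 14 rose with papain, against 6.04%. On the I3C diet 2 rose with papain (Lilrb4a and Ltb4r1) and 1 fell (Il1r2), against 3.69% and 5.29%. The exception in the diet comparison was the leukotriene receptor gene Ltb4r1, which rose on both diets (log2 fold changes 1.14 and 1.12, edgeR adjusted p = 1.10e-04 and 1.05e-04) and had a diet difference of -0.12 with papain (adjusted p = 0.692). The sum of the list with vehicle on the I3C diet was 136.3 to 175.2 CPM, mostly from Il1r2, Mxd1 and Ltb4r1. Their means were 66.7, 37.7 and 32.3 CPM. Several other genes of the list were at or near the floor in that group, with 0 counts of Fpr1, 3 each of Fpr2 and Acod1 and 4 of Pilra.

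Transcripts of other cells moved with the diet as well. With papain, 11 of 12 fibroblast, 10 of 10 endothelial and 5 of 5 erythroid markers were called higher on the AhR-poor diet. So were 10 of 12 monocyte and macrophage, 5 of 6 mast cell and 4 of 5 eosinophil markers, against 7.15% of all genes tested. The lowest counts were 1 of 3 platelet, 2 of 6 T cell, 0 of 8 Langerhans cell and 0 of 9 keratinocyte markers. With vehicle, 11 of 12 fibroblast, 9 of 10 endothelial and 5 of 5 erythroid markers were called higher on the AhR-poor diet, against 1.59%. So were 5 of 12 monocyte and macrophage, 1 of 6 mast cell and 1 of 3 platelet markers, but 0 of the eosinophil, T cell, Langerhans cell and keratinocyte markers. The Langerhans cell markers were higher on the AhR-poor diet too, although 0 were called. Their sum was 402.5 to 879 CPM in the I3C papain libraries and 1034 to 1287 CPM in the AhR-poor papain libraries. With vehicle it was 377 to 708 and 976 to 1106 CPM. Their median log2 fold change between the diets with papain was 1.19, against 0.03 for the keratinocyte markers. The alpha and beta globin genes summed to 0.343 to 16.7 CPM in the I3C papain libraries and to 259 to 1220 CPM in the AhR-poor papain libraries. Collagen I and III genes (Col1a1, Col1a2 and Col3a1) summed to 0.999 to 7.09 and to 140 to 369 CPM. The full fibroblast list ran from 156 to 167 and from 459 to 894 CPM, and its sum on the I3C diet was mostly Thy1, which T cells express too. Library T106 was the highest of its group in globin and in collagen, as it was in the 7 genes other than Cxcr2, and T105 was so in its group.

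Set against these transcripts of the same library, a measure chosen after the data were seen, the diet contrast with papain looked different. The 7 genes together had 60.5, 80.0, 150 and 187.5 counts per 100 globin counts in the I3C papain libraries, and 56.7, 43.6, 46.4 and 24.9 in the AhR-poor papain libraries. Per globin count their sum was thus lower on the AhR-poor diet in every library, in the opposite direction to its CPM. The highest I3C ratios rest on few counts, 18 of the 7 genes over 12 of globin in T114 and 30 over 16 in T115. Taken singly, with 0.5 added to each count, Trem3, Clec4e and Retnlg lay wholly lower on the AhR-poor diet. The diets overlapped for Csf3r, Trem1, Clec4d and Ly6g. Per 100 collagen I and III counts the 7 genes had 142, 75.0, 51.4 and 53.6 on the I3C diet and 90.1, 144, 72.3 and 46.0 on the AhR-poor diet, and the groups overlapped. Per 100 counts of the full fibroblast list the range was 0.312 to 6.05 on the I3C diet and 14.0 to 59.5 on the AhR-poor diet, in the direction of the CPM. Per 100 counts of the endothelial list they had 326, 129, 36.7 and 55.6 on the I3C diet and 390, 733, 812 and 154 on the AhR-poor diet, where the mean was higher, as in CPM, and library T106 overlapped the other group. The direction of the diet contrast thus depended on the transcripts it was set against.

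The contrast of papain with vehicle kept its direction on either scale. Per 100 globin counts, the AhR-poor vehicle libraries held 1.97 to 3.25 counts of the 7 genes and the I3C vehicle libraries 0 to 11.5. Per 100 collagen counts these ranges were 2.65 to 4.48 and 0 to 5.19. All were below the papain libraries of the same diet. In bulk samples such as these, fewer neutrophils and less RNA per neutrophil cannot be told apart. Which cells the transcripts came from cannot be told either, and 10 of 12 monocyte and macrophage markers were called higher in the same diet contrast. Whether blood or dermis in the preparation had a part in the diet contrast was not tested.

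**Figure D4:**
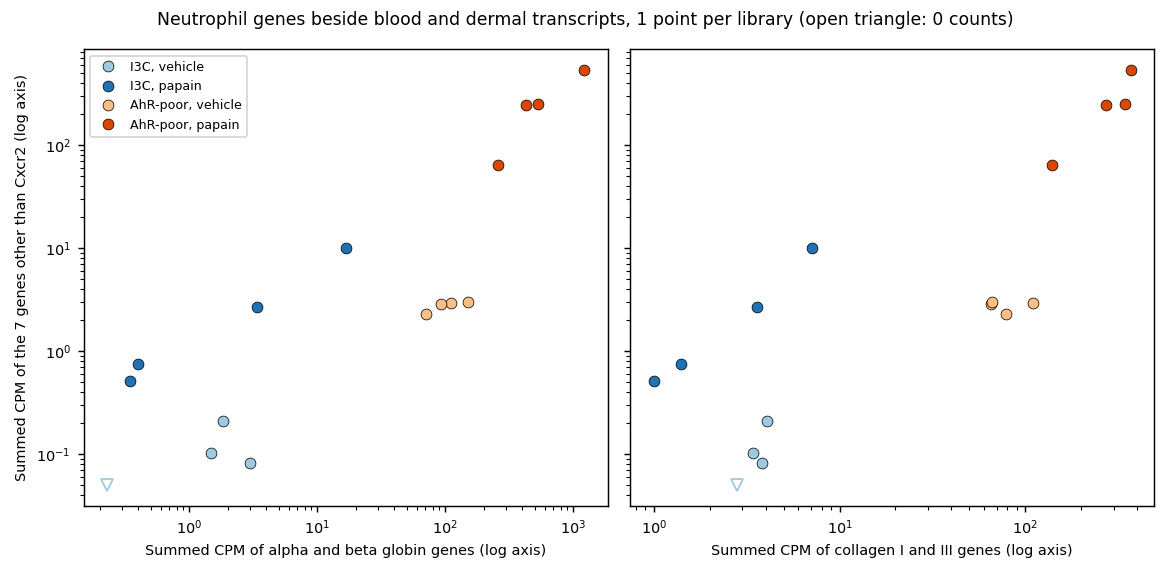
Summed CPM of the 7 genes other than Cxcr2 (y axis) against summed CPM of the alpha and beta globin genes (left) and of the collagen I and III genes (right), on log axes with 1 point per library and an open triangle for the library with 0 counts. The 7 genes summed to at most 0.210 CPM with vehicle and 0.514 to 10.1 CPM with papain on the I3C diet, and to at most 2.97 and at least 64.3 CPM on the AhR-poor diet. Globin reached 16.7 CPM at most on the I3C diet and 70.96 CPM at least on the AhR-poor diet.

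The make-up of the 7 genes changed with papain on the AhR-poor diet, the diet on which both treatments gave enough counts (86 or more per library). This was likewise looked at after the levels were known and is given without a test. Retnlg made up 10.3%, 14.8%, 13.3% and 9.30% of the counts of the 7 genes with vehicle and 3.07%, 2.98%, 3.92% and 2.29% with papain. Trem1 made up 11.2%, 9.26%, 10.8% and 9.30% with vehicle and 20.7%, 18.6%, 20.04% and 19.0% with papain. For both genes the vehicle and papain libraries lay apart. For both, however, the 95% exact (Clopper-Pearson) intervals of the nearest libraries overlapped. For Retnlg they were 4.10% to 17.5% in vehicle library T103 and 3.43% to 4.46% in papain library T107. For Trem1 they were 5.93% to 18.8% in vehicle library T100 and 18.2% to 19.1% in papain library T105. Csf3r, Trem3, Clec4d and Clec4e overlapped, with Csf3r at 21.4% ± 8.06 and 21.1% ± 2.12 (SD, n = 4), and Ly6g went from 0% to at most 1.011%. The exact interval around 0% reached 4.199% in library T103, above every papain share, so a difference in the share of Ly6g was not detectable at this depth.

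**Figure D5:**
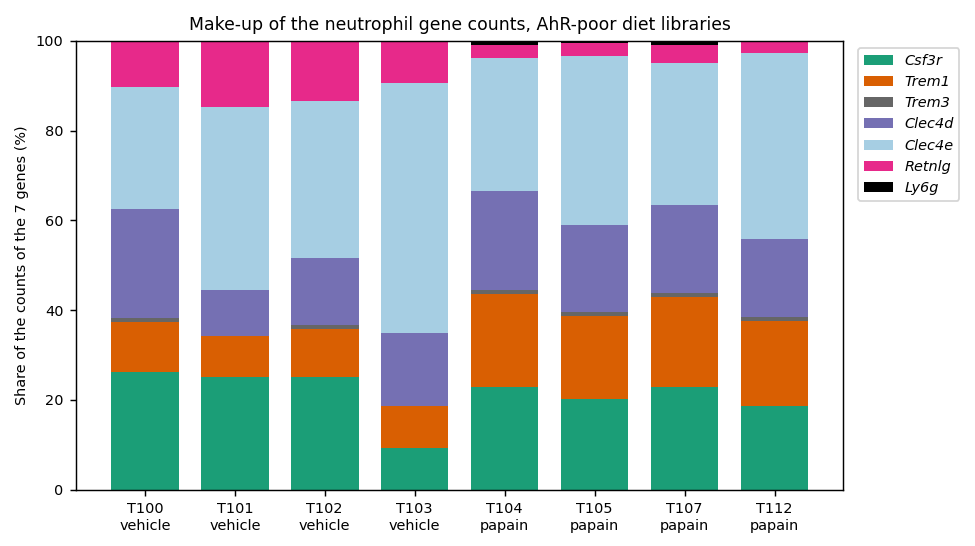
Share in percent of each of the 7 genes in their summed counts, as stacked bars that start at 0, for each library of the AhR-poor diet. The share of Retnlg ran from 9.30% to 14.8% with vehicle and from 2.29% to 3.92% with papain, and that of Trem1 from 9.26% to 11.2% and from 18.6% to 20.7%.

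The genes whose log2 CPM followed the mean of the 8 standardised genes most closely over the 16 libraries, among 16352 genes with at least 10 counts in 4 or more libraries, were Il1b (Pearson's r of 0.990), the histidine decarboxylase gene Hdc (0.989), the interferon-induced gene Ifit3 (0.988), the proteoglycan gene Srgn (0.987) and the inhibitory receptor gene Pirb (0.987). For single genes the closest were Entpd1 for Csf3r (0.987), Glrx for Cxcr2 (0.986), Il1b for Trem1 (0.990), Klra2 for Trem3 (0.983), Hdc for Clec4d (0.989), Ctsz for Clec4e (0.987), F5 for Retnlg (0.987) and 9830107B12Rik for Ly6g (0.982). Hdc was also on the list of neutrophil genes. With 4 groups that differ as far as these, such values describe a shared order of libraries.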

How the data were processed

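Bulk mRNA libraries (TruSeq Stranded) of footpad epidermal cells were made from 16 mice. The authors aligned reads with STAR to mm10 and deposited raw counts per gene, without normalization; the counting tool, its annotation and its strand setting are not given in the sources used here. Symbols and positions were taken from GENCODE M21. Genes with at least 10 counts in total (22155 of 50600) were fitted in edgeR 4.0.16 (R 4.3.3) with TMM factors, 1 mean per group over the 16 libraries and robust quasi-likelihood F tests, and a gene was called where p after Benjamini-Hochberg adjustment fell below 0.01 with a log2 fold change beyond 1 in size. The SE of an edgeR log2 fold change is its absolute value divided by the square root of the F statistic. CPM used the same factors, and log2 CPM a prior count of 0.5. Single genes were compared by two-sided exact permutation tests (4 against 4 libraries, smallest p 0.0286). Folds are ratios of mean CPM. Against a group with 0 counts, 3 counts over the group gave a lower bound, against 1 to 3 counts the ratio of summed counts is given with its exact 95% interval, and no fold is given where both groups had 3 or fewer. Intervals and floors cover counting error only.

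The genes and lists were chosen with earlier results of these data known. Named were the 8 genes in every comparison, list genes of ligands, partners and granules where they passed (at most 12 of each by size of the papain diet difference, and others for contrast, chosen after their values were seen), and the genes most correlated with them. Alternatives were RLE factors, library size only, other filters, DESeq2 1.42.0, only the 8 libraries compared, other thresholds and leaving out each library. The model was tested on simulated data in which only genes well above the floor were changed, all by the same fold and with a common spread. That test does not cover genes near the floor or groups as spread as the AhR-poor papain libraries. Depth ranged from 22500821 to 51844375 counts, the sequencing unit of each library is not in the labels, and no sample was left out.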

Additional observations from a re-analysis of the deposited data

Results flagged for a closer look

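Of 28 sets of 4 libraries checked (the 8 genes in the groups where they had counts in at least 1 library), 4 held a library whose gap to its nearest neighbour exceeded Dixon's limit at the 95% level. By chance this limit flags about 1 in 20 sets of normally distributed values. Csf3r was at 0.215 CPM in the AhR-poor vehicle library T103, against 0.715 CPM in the next lowest (gap 0.912 of the range). The other 3 sets were of the I3C vehicle group and rest on 0 to 3 counts, to which that rate does not apply. A set with counts in 1 library alone, as for Clec4e and Retnlg, is flagged whatever the count. Clec4d was at 0 CPM in library T108 against 0.0255 CPM in the next, Clec4e at 0.0901 CPM in library T111 against 0 in the other 3, and Retnlg at 0.0272 CPM in library T110 against 0 in the other 3.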

How the results depend on the processing

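The number of the 8 genes called depended on the settings mostly where a group lay near the floor. For the diet difference with vehicle (0 called), DESeq2 called 4 and a fit of only the 8 libraries compared called 5. For the papain response on the I3C diet (1 called), DESeq2 called 5, and filterByExpr, only the 8 libraries compared and an adjusted p below 0.05 called 2 each; leaving out 1 library gave 1 to 2. With at least 10 counts in every library, 1 of the 8 genes, Cxcr2, was left to test, so that the diet difference with papain (6 called) had 0 and the papain response on the AhR-poor diet (8 called) had 1, by the filter's own construction. For single genes, 837 alternatives kept their direction and side of the threshold, 18 came to pass it, 9 no longer passed it (all Ly6g), and 4 turned in direction, none of them called. These were interaction estimates in fits without 1 library, whose lowest and highest values were -0.41 and 0.119 for Cxcr2 (turned without T103), -2.3 and 1.76 for Clec4e (without T111 and T105) and -0.171 and 3.58 for Retnlg (without T110). The cause was not tested. No paired analysis was possible because groups have no replicate number in common. Depth limits what can be said of Trem3, Ly6g and Retnlg on the I3C diet, where 0 to 14 counts were found in a group.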
